A study of Homo sapiens with 12 samples.

Results

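The guanylate-binding protein (GBP) and apolipoprotein L (APOL) genes were followed in Raji and Daudi, established lines of Burkitt lymphoma, a B cell tumour, with and without FBXO11. The table of 19919 genes was searched for the symbols of 10 members, GBP1 to GBP5, APOL1 to APOL4 and APOL6, and each was found in 1 row. They were chosen by name with results of these libraries in view, namely lower interferon-induced transcripts, GBP4 among them, in Daudi knockout than in Daudi wild type. Their values in that comparison are therefore a description without a test, and the comparison of Raji knockout with Raji wild type is the one tested, in a model that takes its filter and its estimate of spread from all 12 libraries. GBP2 to GBP5 and APOL4 passed that filter through Daudi wild type, so their Raji values are a description too.

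Raji wild type (genotype label WT) and Raji FBXO11 knock-out were each sequenced in 4 libraries, and Daudi wild type and Daudi FBXO11 knock-out in 2 each. The labels name no drug or cytokine treatment for any group. Knockout cells carried a lentiviral CRISPR/Cas9 construct with a guide against exon 4 of FBXO11, the substrate receptor of a ubiquitin ligase. They were selected with puromycin and grown from single cells, so each knockout library comes from clonal cells. The sources used here do not give which clone or guide belongs to which library, or whether wild-type cells had received a vector.

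Both families are known as interferon-induced genes of cell-autonomous defence. GBPs are large GTPases that assemble on bacteria and on vacuoles inside the cell, and GBP1 on the lipopolysaccharide of bacteria can recruit caspase-4. APOL proteins act on membranes: secreted APOL1 lyses trypanosomes and APOL3 can dissolve bacterial membranes. Interferon signals through JAK kinases to transcription factors, among them STAT2, IRF9 and IRF1, that bind 2 kinds of short element in promoters, the interferon-stimulated response element (ISRE) and the gamma-activated site (GAS).

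Promoters are shown because the members share this route of induction. RefSeq promoter windows on GRCh38.p14, from 250 bases before to 50 bases after a gene start, were matched for 3 members, GBP1, GBP3 and GBP4. No window was matched for GBP2, GBP5 or the 5 APOL genes. The ISRE core was searched as GAAANNGAAA and the GAS core as TTCNNNGAA, on both strands. Capitals mark matches in stretches of 120 bases, read on the gene's strand, which for each of the 3 genes is the minus strand of chromosome 1:
GBP1, chr1:89065266-89065385: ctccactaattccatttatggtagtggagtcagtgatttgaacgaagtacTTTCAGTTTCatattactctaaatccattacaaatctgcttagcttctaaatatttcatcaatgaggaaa
GBP3, chr1:89022837-89022956: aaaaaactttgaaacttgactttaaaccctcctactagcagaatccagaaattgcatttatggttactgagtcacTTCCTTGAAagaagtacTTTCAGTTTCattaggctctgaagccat
GBP4, chr1:89198913-89199032: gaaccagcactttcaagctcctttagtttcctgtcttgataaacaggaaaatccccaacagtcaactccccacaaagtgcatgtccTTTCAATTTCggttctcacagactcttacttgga

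An ISRE core, in reverse orientation, stood in each of these 3 windows, against 3.57% of 35116 windows of the same length. In GBP1 it lay 127 to 118 bases before the RefSeq start, in GBP3 from base 3 to base 12 after the start, and in GBP4 from 4 bases before the start to base 6 after it. GBP3 alone among them also held a GAS core, 15 to 7 bases before the RefSeq start, which 7.66% of windows did. It does not overlap the ISRE core. By the GENCODE gene bounds given below, the GBP1 core and the GBP3 cores lie inside the gene and the GBP4 core lies before it. The GBP1 and GBP3 windows shared a run of 19 bases, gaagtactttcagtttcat, that contains the ISRE core, whereas the longest run shared with GBP4 was 9 bases for GBP1 and 8 for GBP3. A match is a string of letters and not evidence of binding.

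The members sat in clusters on 2 chromosomes (GRCh38, GENCODE release 29). On chromosome 1 the order was GBP3 (89006666 to 89022894), GBP1 (89052319 to 89065360), GBP2 (89106132 to 89150456), GBP4 (89181148 to 89198932) and GBP5 (89258950 to 89272804), all on the minus strand. On chromosome 22 APOL6 (35648395 to 35668409, plus strand) lay apart from APOL3 (36140330 to 36166177), APOL4 (36189124 to 36204840) and APOL2 (36226203 to 36239954), all minus, and APOL1 (36253010 to 36267530, plus). GBP2 shared 9.89% of its exonic bases with GBP7, on the same strand, and the other members shared 0 to 3.98% with any gene. Of all 50-base stretches in GBP1 transcripts, 6.60% also occurred in the pseudogene GBP1P1 and 3.40% in GBP3. The sources used here do not give how reads from such stretches were assigned, so low GBP1, GBP2 and GBP3 levels are uncertain to that extent.

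Library totals ran from 11164332 to 23557920 counts. Levels are CPM, the usual counts-per-library-size unit, with library sizes normalised by TMM, and 3 counts, taken as the detection floor, equal 0.118 to 0.275 CPM. In Raji, FBXO11 mRNA ranged over 68.6 to 118 CPM for wild type and 34.1 to 72.1 CPM for knockout; in Daudi it was 51.7 and 81.8 CPM for wild type and 88.4 and 92.8 CPM for knockout. Whole-gene counts do not read an edit in exon 4 and so do not check the labels. All 7 B cell markers examined passed 1 CPM in each group. The most alike pair, Raji wild-type replicates 3 and 4, had a chi-square of counts over genes of 2.18 for each degree of freedom, while every other pair within a group had 21.9 to 171. Both were kept; summing them changed no call among the members in Raji, and in Daudi APOL6 was then not called. No label states that replicates came from separate cultures, so p-values reflect only how these libraries vary, possibly for technical reasons. In bulk RNA, fewer cells expressing a gene and less RNA per cell cannot be told apart.

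In Daudi, each of the 10 genes was lower in both knockout libraries than in both wild-type libraries, which held for 19.6% of the 12027 genes tested. The summed level of the 5 GBPs was 234 CPM in wild type against 3.94 CPM in knockout, and that of the 5 APOLs 414 and 77.5 CPM. These wild-type means join unlike libraries, with 365 and 103 CPM for the GBPs and 588 and 240 CPM for the APOLs in replicates 1 and 2. The edgeR quasi-likelihood model called 6 members lower at an adjusted p under 0.05 (GBP1, GBP2, GBP4, GBP5, APOL3 and APOL6) against 1.82% of all genes, and 0 higher against 0.798%. As the members were chosen on this comparison, nothing is read from that count, and the smallest group has 2 libraries. The count was 2 (APOL3 and GBP4) without Daudi wild-type replicate 1, without knockout replicate 1 or without knockout replicate 2, and 0 when only the 4 Daudi libraries were fitted. DESeq2 called 8 lower, and its calls over all genes were not counted. APOL6 was at the threshold (edgeR adjusted over all genes with Benjamini-Hochberg), and its call was also lost with no filter on low counts.

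**Figure D1:**
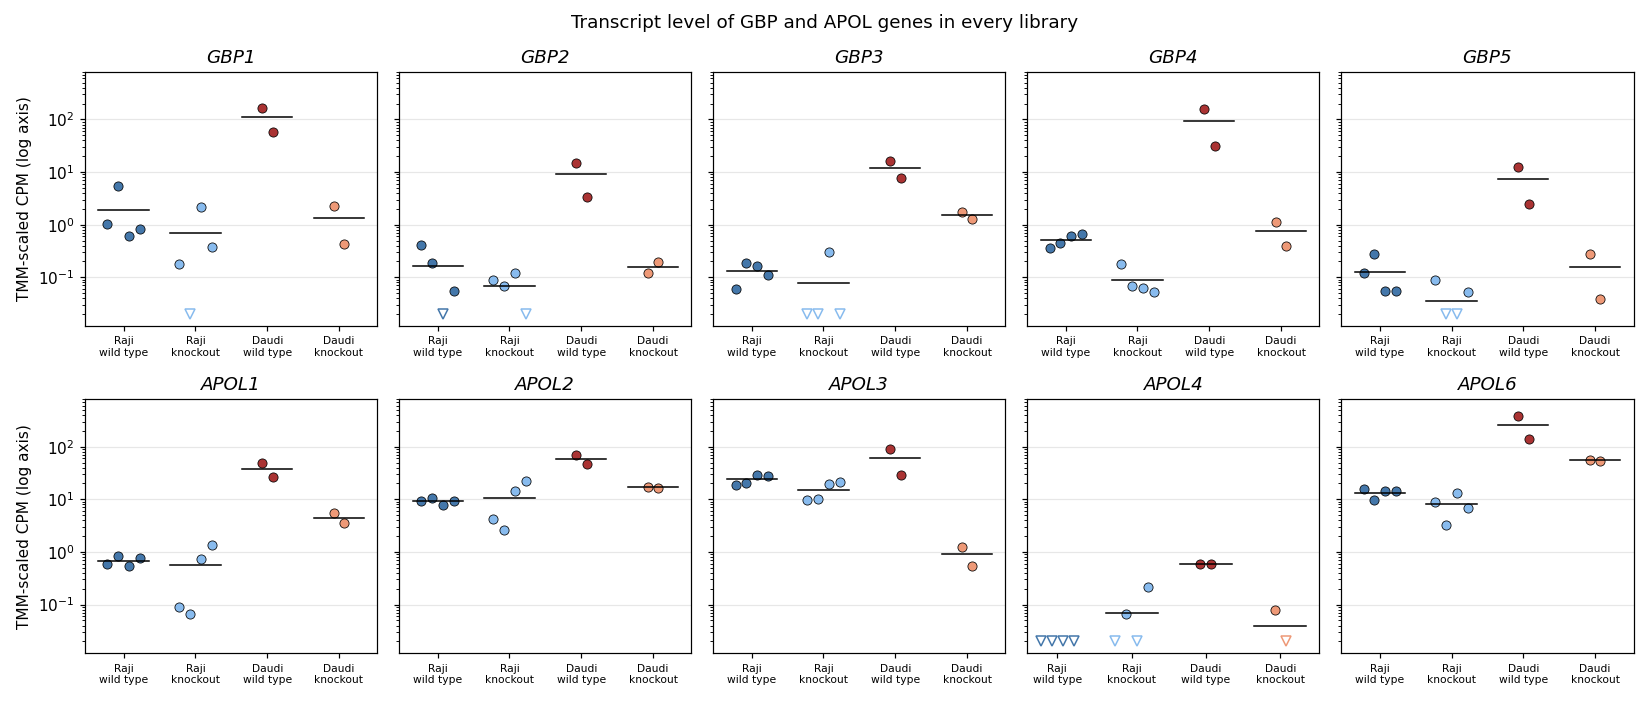
TMM-scaled CPM of each gene (log axis) in every library of the 4 groups; filled points are libraries, lines are group means and open triangles are libraries with a count of 0. The 2 Daudi wild-type libraries stand above the Daudi knockout libraries in every panel, and the GBP genes are near or below 1 CPM in most Raji libraries.

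GBP1, which initiates the coat on bacteria, measured 162 and 58.3 CPM in Daudi wild type and 2.25 and 0.432 CPM in Daudi knockout. The knockout mean was 1.22% of the wild-type mean, with a log2 change of -6.36 (SE 1.33). Its knockout libraries differed by 5.20 times between themselves.

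GBP4, another GTPase of the family, measured 159 and 30.8 CPM in wild type against 1.14 and 0.393 CPM in knockout. This is a log2 change of -6.94 (SE 0.77), with a knockout mean at 0.808% of wild type. Wild-type replicate 1 was 5.18 times replicate 2, yet even the lower of the 2 was far above both knockout libraries. Without wild-type replicate 1 the log2 change of GBP4 was -5.31, and it lay between -7.89 and -5.31 in the 12 fits that left out 1 library.

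GBP2 and GBP5, which like GBP1 carry a lipid anchor, were close to the floor in Daudi knockout. GBP2 measured 15.2 and 3.41 CPM in Daudi wild type and 0.118 and 0.196 CPM in knockout, a log2 change of -5.83 (SE 1.15). GBP5, also described as an inhibitor of furin-like proteases, measured 12.5 and 2.42 CPM against 0.276 and 0.0393 CPM, a log2 change of -5.51 (SE 1.08). For each gene the 2 knockout libraries held 8 counts together, so the size of the change is less certain than its direction. The pooled counts gave a wild-type level 62.3 times (95% exact interval 31.3 to 145) and 50.3 times (25.2 to 117) the knockout level, intervals that cover counting error only.

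GBP3 differed from the other GBPs in how much was left. It measured 16.0 and 7.56 CPM in wild type against 1.73 and 1.30 CPM in knockout, so 12.9% of the mean remained, against 0.808 to 2.11% for GBP1, GBP2, GBP4 and GBP5. Its log2 change was -2.95 (SE 0.86). GBP6 and GBP7, the family genes outside the set, held 3 and 4 counts over all 12 libraries.

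Among the APOL genes, APOL3 stood apart in Daudi. It measured 91.0 and 28.5 CPM in wild type against 1.26 and 0.550 CPM in knockout, a log2 change of -6.03 (SE 0.69) with 1.52% of the mean left. APOL3 and GBP4 were the 2 members called in each of the 12 fits that left out 1 library.

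APOL6, an intracellular member linked to cell death, measured 380 and 139 CPM in Daudi wild type. In knockout it was at 57.0 and 53.4 CPM, or 21.3% of wild type, with a log2 change of -2.23 (SE 0.53). The knockout libraries lay close together and below the lower wild-type library. Without wild-type replicate 1 the log2 change of APOL6 was -1.33.

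APOL1 measured 48.2 and 26.3 CPM in Daudi wild type and 5.40 and 3.61 CPM in knockout (log2 change -3.04, SE 0.77). APOL2, an intracellular APOL, went from 68.5 and 45.8 CPM to 17.4 and 16.4 CPM (log2 change -1.76, SE 0.71, and -1.44 without wild-type replicate 1). A level of 12.1% of wild type was left for APOL1 and 29.6% for APOL2. APOL4 was barely expressed, at 0.581 and 0.593 CPM in wild type against 0.0789 and 0 CPM in knockout. With 26 against 2 counts the APOL4 wild-type level was 14.9 times that in knockout, with a 95% exact interval of 3.73 to 129.

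**Figure D2:**
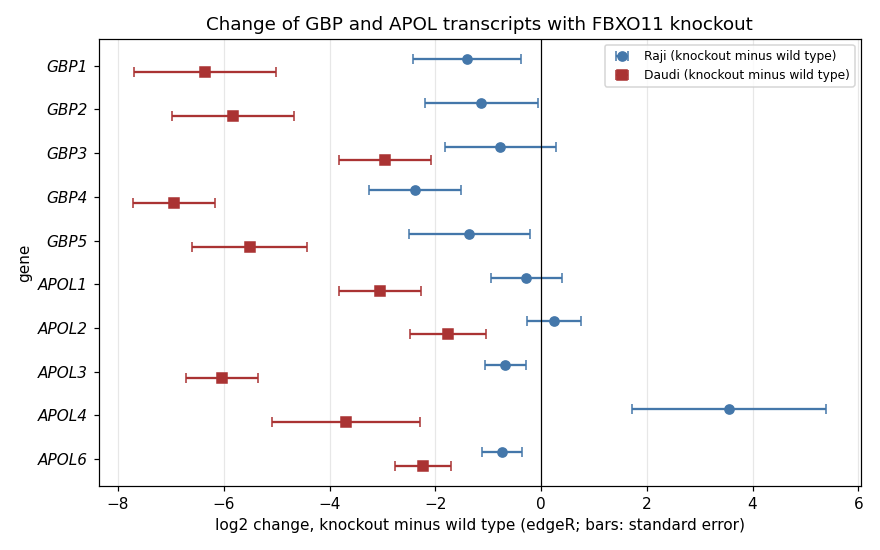
Log2 change with knockout (horizontal axis, knockout minus wild type) for each gene in Raji (circles) and Daudi (squares), with bars of 1 standard error from the edgeR model. Daudi values run from -6.94 (GBP4) to -1.76 (APOL2), while in Raji 8 of 10 values lie below 0, against 47.3% of all genes tested. In Raji the APOL4 value rests on 5 counts in all. Those of GBP2, GBP3 and GBP5 rest on 7 to 10 wild-type and 3 to 5 knockout counts. The Raji values of GBP2, APOL1 and APOL2 turned sign in fits without 1 library.

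The median log2 change in Daudi was -5.83 over the GBPs and -3.04 over the APOLs, against 0.00 over all genes tested. The median over the 10 members was -4.60, and -3.76 to -5.99 over the 12 fits without 1 library, the latter without Daudi knockout replicate 1. In each of these fits all 10 values stayed below 0.

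The 2 Daudi wild-type libraries differed in the same sense for 9 of 10 members, replicate 1 being the higher. The ratio of replicate 1 to replicate 2 had a median of 4.45 over the GBPs and 1.83 over the APOLs, and 1.04 over the 10530 genes above 1 CPM in both. GBP3 had the lowest ratio of the GBPs (2.11) and APOL4 was level (0.979). Genes known mainly as type I interferon targets had a median ratio of 3.21 (22 of 22 above 1), so the wild-type replicates also differed in those. Markers of myeloid cells moved too: their summed level was 30.9 to 59.8 CPM in Daudi wild type and 14.3 to 21.3 CPM in knockout. Of the 8 myeloid markers, 4 passed 1 CPM in a wild-type library (LYZ, CD68, ITGAM and CSF1R), and MPO and S100A8 were at 0. Of the 4 endothelial markers PECAM1 passed 1 CPM, CDH5 was at 0, and the sum was 23.2 to 50.4 CPM in wild type and 14.0 to 14.2 CPM in knockout. The B cell sum was also lower, at 2798 to 3575 CPM in Daudi wild type and 2198 to 2443 CPM in knockout. So was the low epithelial and fibroblast sum, at 0.889 to 2.36 CPM and 0.276 to 0.589 CPM, while the T and NK cell sums overlapped. Of single genes, 19.6% of the 12027 tested were lower in both Daudi knockout libraries. The part of these markers in the result was not tested.

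In Raji the comparison of knockout with wild type called 0 of 10 members lower and 0 higher (edgeR quasi-likelihood, Benjamini-Hochberg), against 1.68% and 0.923% of all genes tested. At an unadjusted p under 0.05 the count was 1 lower (GBP4) and 0 higher, against 1904 of all 12027 genes tested in either direction. DESeq2 called 1 lower (GBP4), and its calls over all genes were not counted. All members passed the filter on low counts, but with the Raji libraries alone 5 did (GBP1, APOL1, APOL2, APOL3 and APOL6). In a fit on those libraries 0 of these 5 were called, with a median log2 change of -0.68. GBP2 to GBP5 and APOL4 passed through Daudi wild type, so their Raji values are a description. The median log2 change over all 10 members was -0.76, against 0.01 over all genes tested.

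GBP4 was the only member whose Raji groups did not overlap, a pattern that 5.99% of all genes showed in that direction. It measured 0.358, 0.458, 0.601 and 0.665 CPM in wild type against 0.178, 0.0677, 0.0614 and 0.0534 CPM in knockout. The log2 change of GBP4 was -2.38 (SE 0.87, adjusted p = 0.197), on 34 against 7 counts. Because GBP4 passed the filter through Daudi wild type, these values and its DESeq2 call are read as a description only. In the 12 fits without 1 library its adjusted p ran from 0.0383 to 0.416, and it was called in 2, those without Daudi wild-type replicate 1 or 2.

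GBP1 in Raji was spread more widely within groups than between them. It measured 1.01, 5.32, 0.601 and 0.832 CPM in wild type against 0.178, 0, 2.21 and 0.374 CPM in knockout, a log2 change of -1.41 (SE 1.02, adjusted p = 0.58). Wild-type replicate 2 and knockout replicate 3 were each high in their group. Without wild-type replicate 2 the log2 change of GBP1 was -0.29, and without knockout replicate 3 it was -3.15.

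GBP2, GBP3 and GBP5 lay at or under the floor in most Raji libraries, with 10, 8 and 7 counts over the 4 wild-type libraries and 5, 5 and 3 over the 4 knockout libraries. A difference with knockout was not detectable at this depth. The pooled wild-type level was 2.26 times (95% exact interval 0.703 to 8.41) the knockout level for GBP2, 1.81 times (0.521 to 7.01) for GBP3 and 2.63 times (0.601 to 15.8) for GBP5, for counting error only. APOL4 had 0 counts in the 4 wild-type libraries and 5 in knockout, in 2 libraries, and the 95% exact interval of the wild-type level over the knockout level was 0 to 1.23.

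APOL2, APOL3 and APOL6 were the members with ample counts in Raji. APOL3 measured 18.4, 20.8, 28.9 and 27.9 CPM in wild type against 9.54, 10.0, 19.2 and 21.4 CPM in knockout (log2 change -0.68, SE 0.38, adjusted p = 0.439). APOL6 measured 15.8, 9.54, 14.3 and 14.2 CPM in wild type against 8.87, 3.32, 13.3 and 6.73 CPM in knockout (log2 change -0.74, SE 0.38, adjusted p = 0.387). For both genes the knockout mean was lower but the groups overlapped.

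APOL2 in Raji showed no common direction among knockout libraries. It measured 9.13, 10.7, 7.81 and 9.09 CPM in wild type, and 4.15 and 2.64 CPM in knockout replicates 1 and 2 but 14.3 and 22.2 CPM in replicates 3 and 4. The log2 change of APOL2 was 0.24 (SE 0.51, adjusted p = 0.901), and -0.39 without knockout replicate 4. APOL1 was divided the same way, at 0.0892 and 0.0677 CPM against 0.737 and 1.34 CPM, with wild type between 0.546 and 0.825 CPM (log2 change -0.28, SE 0.67, adjusted p = 0.915). Knockout replicates 3 and 4 were both above 1 and 2 for 4 of 10 members (GBP1, APOL1, APOL2 and APOL3), and for 30.8% of all genes tested.

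Whether the knockout change differed between the lines was not tested for the members, because the Daudi comparison had chosen them. The levels can be set side by side. Daudi wild type exceeded Raji wild type in mean CPM by 56.8 times for GBP1, 183 times for GBP4, 54.3 times for APOL1, 19.3 times for APOL6, 6.22 times for APOL2 and 2.49 times for APOL3. After knockout the Daudi mean was 0.690 times the Raji wild-type mean for GBP1 and 1.48 times for GBP4. Without Raji wild-type replicate 2, a setting chosen after seeing the data, the GBP1 ratios to Raji wild type were 135 for Daudi wild type and 1.64 for Daudi knockout. APOL3 went below the Raji level: the Daudi knockout mean was 0.0377 times that of Raji wild type. APOL6 (4.10 times), APOL1 (6.57 times) and APOL2 (1.84 times) stayed above the Raji wild-type mean. GBP3 was at 11.7 times, GBP5 at 1.25 times and GBP2 at 0.959 times, all resting on Raji levels near the floor. The Raji wild-type mean was also low for GBP4 (0.521 CPM) and APOL1 (0.686 CPM), so their ratios are less certain.

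Levels of different genes were compared per kilobase (kb) of annotated exons. In Daudi wild type the order was APOL6 (25.6 ± 16.9 CPM per kb), GBP1 (22.1 ± 14.7), APOL2 (16.4 ± 4.60), GBP4 (15.5 ± 14.8), APOL1 (10.6 ± 4.40) and APOL3 (10.1 ± 7.49; SD, n = 2). GBP3 (2.74 ± 1.38 CPM per kb), GBP2 (1.48 ± 1.33), GBP5 (0.918 ± 0.877) and APOL4 (0.134 ± 0.00197) followed. Each neighbouring pair in this order differed by less than the larger of its 2 SDs.

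In Daudi knockout APOL6 (5.45 ± 0.253 CPM per kb), APOL2 (4.86 ± 0.204) and APOL1 (1.28 ± 0.359) led, each apart from the next by more than the larger SD, followed by GBP3 (0.353 ± 0.0721) and GBP1 (0.268 ± 0.257; SD, n = 2), which did not differ beyond their spread. In Raji wild type the leading genes were APOL3 (4.07 ± 0.883 CPM per kb), APOL2 (2.64 ± 0.343) and APOL6 (1.33 ± 0.268; SD, n = 4), each apart from the next by more than the larger SD. GBP1 (0.389 ± 0.452 CPM per kb) followed, within its spread of APOL1 (0.195 ± 0.0385). In Raji knockout APOL2 (3.10 ± 2.63 CPM per kb) and APOL3 (2.55 ± 1.04) led and did not differ beyond their spread.

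Genes next to the members were taken from the annotation, the 3 nearest on each side of each cluster. Of the 10 flanking genes tested, among them KYAT3 and RBMXL1 beside GBP3 and MYH9 and RBFOX2 beside the APOL cluster, edgeR called 0 in Daudi and 0 in Raji. At an unadjusted p under 0.05 the counts were 0 in Daudi and 2 higher in Raji, against 1732 and 1904 of all 12027 genes tested. DESeq2 called 0 in either line. Their log2 changes in Daudi ran from -0.26 to 0.41. KYAT3, a kynurenine aminotransferase 13.7 kb from GBP3, measured 25.6 ± 4.52 CPM in Daudi wild type and 26.0 ± 7.31 CPM in knockout. MYH9, non-muscle myosin, 13.7 kb from APOL1, measured 451 ± 111 and 544 ± 66.8 CPM (SD, n = 2 each).

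**Figure D3:**
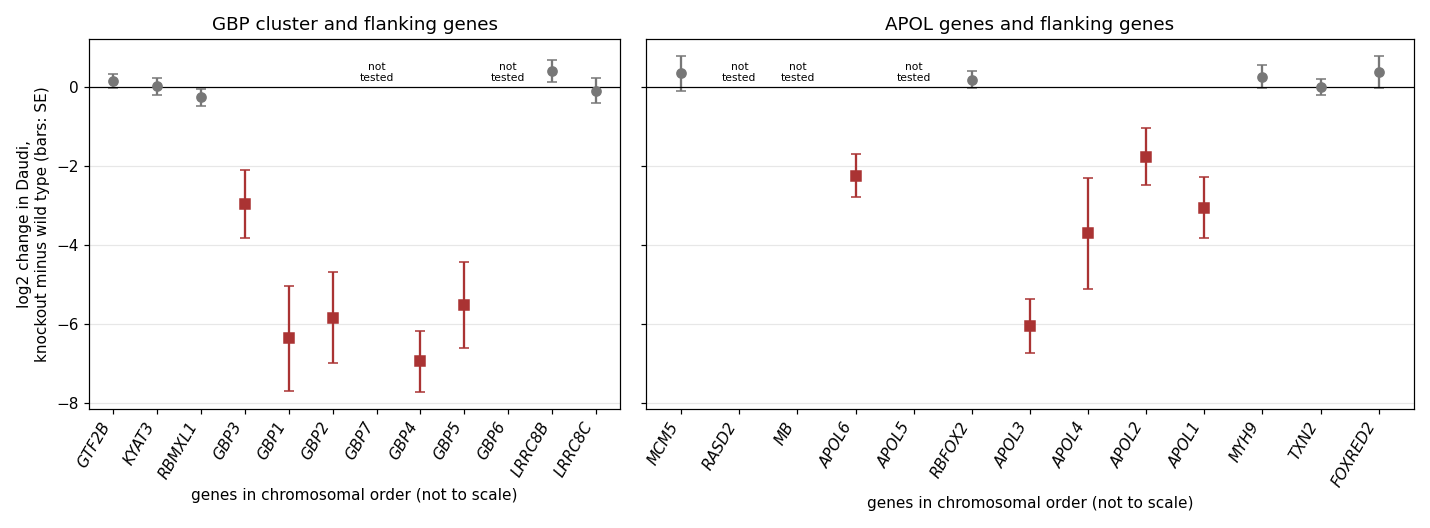
Log2 change in Daudi (vertical axis, knockout minus wild type, bars of 1 standard error) for the GBP and APOL genes (squares) and flanking genes (circles), in chromosomal order and not to scale. The flanking genes lie between -0.26 and 0.41, and the squares between -6.94 and -1.76; genes too low to test are marked.

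The signalling genes upstream of the families were examined as a list of 20, of which 19 were tested. Of all genes tested in Daudi, edgeR called 1.82% lower and 0.798% higher. Of this list it called 4 of 19 lower in Daudi, 0 higher and 15 not, with a median log2 change of -0.32. Among those called were STAT2 (582 to 107 CPM, log2 change -2.45), IRF9 (172 to 18.4 CPM, log2 change -3.23) and IRF1 (100 to 23.3 CPM, log2 change -2.11), transcription factors of the interferon response. The receptor chains and kinases were not called by edgeR. DESeq2 called 6 lower and 1 higher in Daudi, the latter being IFNAR2, a chain of the type I receptor (edgeR log2 change 1.12), and at an unadjusted p under 0.05 edgeR had 6 lower and 2 higher. In Raji 0 of 19 passed, with 5 lower and 1 higher at an unadjusted p under 0.05, and 3 lower and 1 higher by DESeq2. The list's median log2 change in Raji was 0.05. Of all 12027 genes tested, 1732 in Daudi and 1904 in Raji had an unadjusted p under 0.05.

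Of 21 interferon genes only IFNB1, encoding interferon beta, reached the filter, at 1.66 ± 1.29 CPM in Daudi wild type and 0.0984 ± 0.0281 CPM in Daudi knockout (SD, n = 2 each). These are 77 and 5 counts, against 0 in Raji wild type and 1 in Raji knockout. The log2 change of IFNB1 in Daudi was -3.99 and was not called. Below the filter, a lambda interferon gene held the most counts, 23 over the 12 libraries. That gene measured 0.485 ± 0.546 CPM in Daudi wild type (SD, n = 2) and 0 CPM in the other groups.

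Lists of genes induced by the 2 kinds of interferon were set beside the members. Of all genes tested in Daudi, edgeR called 1.82% lower and 0.798% higher. Of 22 tested genes known mainly as type I interferon targets, 19 were called lower in Daudi and 0 higher by edgeR, with a median log2 change of -5.39. Of 15 known mainly as interferon gamma targets, edgeR called 3 lower (CXCL10, TAP1 and BATF2), DESeq2 called 5, and neither called any higher, with a median of -0.96. The GBP median of -5.83 lay near the first of these medians and the APOL median of -3.04 between them. As the members were chosen on the Daudi comparison and the lists with earlier results known, this placing is a description without a test. In Raji 0 of 22 and 0 of 15 passed, with 2 and 6 lower and 1 and 0 higher at an unadjusted p under 0.05 and with 2 and 3 lower and 0 higher by DESeq2. Of all 12027 genes tested, 1904 had an unadjusted p under 0.05 in Raji. The median log2 changes of the 2 lists in Raji were -0.58 and -0.73.

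Partners of the GBPs were examined as well. Among inflammasome and pyroptosis genes, 6 of 11 were tested. CASP1, the inflammasome protease, was called lower by edgeR in Raji (2.89 to 0.410 CPM, log2 change -2.81, adjusted p = 0.0079) and in Daudi (39.1 to 5.24 CPM, log2 change -2.90). CASP4, which binds lipopolysaccharide, was called lower in Daudi (58.8 to 7.41 CPM, log2 change -2.99) and had a log2 change of 3.13 in Raji (0.112 to 0.885 CPM), which edgeR did not call (adjusted p = 0.0886) and DESeq2 called higher (adjusted p = 0.00395). The remaining 4 tested genes were called in neither line by either tool.

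A list of prenyl transferase, processing enzyme and kinase genes, with YWHAB and YWHAZ, gave 0 of 9 called in either line by edgeR or DESeq2. At an unadjusted p under 0.05 there were 2 lower in Daudi and 1 higher in Raji, against 1732 and 1904 of all 12027 genes tested. In a list of other interferon-induced GTPases and RNF213, 2 of 4 tested were called lower in Daudi. These were MX2 (183 to 1.12 CPM) and RNF213 (844 to 43.1 CPM), of which DESeq2 called RNF213. In Raji 0 of 4 were called, 0 had an unadjusted p under 0.05 and DESeq2 called 0.

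Genes with the most similar pattern were ranked by the root-mean-square distance between log2 CPM profiles over the 12 libraries, each centred on its own mean. Nearest to the mean GBP profile were PLSCR1 (distance 0.47), IFIT5 (0.57), DISC1 (0.58) and ISG15 (0.59). Nearest to the mean APOL profile were UBE2L6 (0.31), EIF2AK2 (0.41), BFSP2 (0.47), IFNB1 (0.48) and PARP10 (0.48). PLSCR1, a phospholipid scramblase, measured 120 ± 73.4 CPM in Daudi wild type and 4.94 ± 3.44 CPM in knockout, and 2.77 ± 0.608 and 0.936 ± 0.579 CPM in Raji. UBE2L6, the conjugating enzyme of ISG15, measured 522 ± 262 and 112 ± 25.5 CPM in Daudi and 82.0 ± 12.8 and 61.0 ± 25.1 CPM in Raji (SD, n = 2 each in Daudi and 4 each in Raji). All profiles share the same 12 libraries. IFNB1 was below the floor in Raji, with 0 counts in wild type and 1 in knockout, so its distance may partly reflect low counts.

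Among the members themselves, GBP2 and GBP5 had the most similar profiles (distance 0.69). Both were near or below the floor in most libraries, so this likeness may partly reflect low counts. The same limit applies to distances from GBP3 and APOL4, which were near the floor in Raji. GBP3 was closer to APOL6 (0.72) than to any GBP, and APOL1 was closest to GBP3 (0.76). APOL3 was the most separate member, its nearest neighbour, APOL4, being at 1.78. The nearest profile to GBP1 was GBP4 (1.31).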

How the data were processed

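Per the labels' protocols, TRIzol RNA was freed of DNA with DNase and sequenced from TruSeq RNA Library Prep Kit v2 libraries, a kit that keeps no strand information. STAR 2.5.0, RSEM 1.3.0 and hg38 are listed, without roles, per the submitters' processing notes. The authors deposited whole-number counts per gene for 12 libraries in 1 table; the sources used here do not give whether they are rounded estimates.

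Groups came from the labels, with replicates numbered in accession order. From the counts, edgeR 4.0.16 (R 4.3.3) kept 12027 genes by its default filter, scaled libraries by TMM and fitted a robust quasi-likelihood model to 4 groups (8 residual degrees of freedom, common biological coefficient of variation 26.1%). Knockout was compared with wild type within each line and p-values were adjusted by Benjamini-Hochberg over all genes tested, with a threshold of 0.05. The SE of a log2 change was its size divided by the square root of the F value. Log2 CPM profiles used a prior count of 2. The fit was tested on simulated data: of genes given a log2 change of 2, edgeR called 100% in Raji (11719 genes, 10 false calls) and 95% in Daudi (11727 genes, 7 false calls). Recovery at the members' own levels and spread was not tested, so these rates are not rates for the members. In Daudi, GBP3 (log2 change -2.95) and APOL1 (log2 change -3.04) were not called by edgeR. DESeq2 1.42.0 and the other alternatives are given in the closing section.

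The members, gene lists and tests were chosen with earlier results of these data known. The genes named are the 10 members, list genes that were called or were among the 4 of their list with the greatest change in Daudi, the 5 genes nearest to each family's profile, each member's nearest other member, and the 3 nearest neighbours on each side of each cluster. KYAT3, RBMXL1, MYH9 and RBFOX2 stand as examples of the last. A gene that this rule would name is not reported here. Intervals and floors cover counting error only, since reads carried no molecular identifiers. No pairing of libraries is given by the labels.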

Additional observations from a re-analysis of the deposited data

Results flagged for a closer look

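In 4 of 19 Raji groups with any counts (10 genes, wild type or knockout, 4 libraries each), 1 library stood far from the other 3 by Dixon's criterion, which chance meets in about 1 group in 20 for normally distributed values; for counts this low the rate was not measured. GBP1 was at 5.32 CPM in Raji wild-type replicate 2, against 0.601 to 1.01 CPM in the others. GBP1 was at 2.21 CPM in Raji knockout replicate 3, against 0 to 0.374 CPM. GBP3 was at 0.307 CPM in Raji knockout replicate 3, against 0 in the others, and GBP4 at 0.178 CPM in Raji knockout replicate 1, against 0.0534 to 0.0677 CPM. The last 2 rest on 5 and 4 counts.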

How the results depend on the processing

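The alternatives were DESeq2 size factors, no filter on low counts, DESeq2, a fit on the line's own libraries, leaving out each library, and Raji wild-type replicates 3 and 4 summed. The count of members called lower in Raji, 0, was 1 (GBP4) with DESeq2 and 0 to 1 without 1 library; a fit on Raji alone tested 5 members. The count called lower in Daudi, 6, was 8 with DESeq2, 5 with no filter and with the replicates summed, 0 with the Daudi libraries alone and 2 to 7 without 1 library. The median log2 change in Daudi ran from -5.99 to -3.76 without 1 library. The summed level in Daudi knockout was 89.8 CPM without TMM scaling, against 81.5 CPM, and that in Daudi wild type, 648 CPM, was 342 to 953 CPM without 1 library. In Raji the log2 change without 1 library turned sign for GBP2 (-1.59 to 0.065, positive without wild-type replicate 1), APOL1 (-1.22 to 0.12, positive at 0.12 and 0.05 without knockout replicate 1 or 2) and APOL2 (-0.39 to 0.56, negative without knockout replicate 4), none of them called; the cause was not tested. In Daudi the sign turned for 0 of 10 members in 17 alternatives each. No paired analysis was possible because the labels give no replicate numbers shared between groups. Depth limits GBP2, GBP3, GBP5 and APOL4 in Raji.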
